A study of Mus musculus with 3 samples.

Results

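The 10 genes described here encode the receptor chains of the interleukin-6 (IL-6) cytokine family (Il6ra, Il6st, Osmr, Lifr), the transcription factor STAT3 (Stat3), the feedback inhibitors of the SOCS family (Socs1, Socs2, Socs3, Cish) and the interleukin-1 receptor (Il1r1). They were taken by gene symbol from tables of 37620 Ensembl mouse genes, and all 10 were found. Their levels were compared in primary hepatocytes of C57BL/6 mice, labelled passage 1, between 1 library from cells given the solvent DMSO and 2 libraries from cells given tauroursodeoxycholic acid (TUDCA), a taurine-conjugated bile acid. All groups share the strain, the collagenase isolation and the culture on gelatin in Williams' Medium E with serum and insulin. Treatment is labelled as 100 mM TUDCA for 24 h (the unit was not checked elsewhere), with no time for DMSO, so time in culture and treatment cannot be told apart. The series speaks of 2 independent experiments without assigning libraries to them, and nothing says that the TUDCA libraries come from separate animals or cultures. The p-values below therefore rest only on the spread between the TUDCA libraries, which may be technical. That spread was pooled over genes of like level and is not each gene's own.

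IL-6 binds its receptor chain, encoded by Il6ra, and the pair then recruits gp130, the shared signalling chain encoded by Il6st. Oncostatin M and leukaemia inhibitory factor use gp130 together with the chains encoded by Osmr and Lifr. JAK kinases bound to these chains phosphorylate STAT3, which enters the nucleus and switches on acute phase genes in hepatocytes. SOCS3 is made in response and blocks gp130, while the SOCS2 and CIS proteins (Cish) act mainly on the growth hormone receptor and STAT5. IL-1, acting through the Il1r1 product, is the other main inducer of acute phase genes and works through NF-kB.

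Values are RPKM (reads scaled by gene length and library total), so levels of different genes can be set side by side. The DMSO library held 10774289 reads, and TUDCA replicates 1 and 2 held 9757547 and 10575699. Differences are on the log2(RPKM + 1) scale, which understates those of low genes, and were tested with limma over 11300 genes whose mean was at least 1 RPKM. The DMSO library has no replicate and was assumed to vary like the TUDCA pair. Of hepatocyte markers, 8 of 8 were above 0, with summed levels of 9272 RPKM in DMSO, against 10588 and 9541 RPKM with TUDCA. Of 9 macrophage and Kupffer cell markers, 9 were above 0 in some library, with sums of 205.7 RPKM in DMSO, against 196.0 and 211.2 with TUDCA. Lysosomal Cd68 made up 170.4, 154.3 and 169.4 RPKM of these.

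Il1r1 (ENSMUSG00000026072) was the member that rose with TUDCA by the limma test, and the other 9 members were not called in either direction. This is 1 of 10 members, while limma called 2.65% of all 11300 genes in either direction, 1.77% as higher and 0.876% as lower. At an unadjusted limma p below 0.05 there were 2 members, Il1r1 and Cish, beside 10.8% of all genes. All 10 members passed the filter on low values, and Socs1 passed it with a DMSO level of 0.989 RPKM, under the limit. The median difference was 0.26 over the members and 0.04 over all genes tested.

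Levels per length differed widely between the members, as the plot of RPKM by gene and library shows. Stat3 (141.4 to 151.8 RPKM over the 3 libraries) was the highest member and Il6st (26.0 to 32.6 RPKM) the next, and neither range overlapped that of a neighbour in the order. Socs3, Il1r1, Socs2, Cish, Lifr and Osmr followed in order of mean level, and each range overlapped the next. Il6ra (3.62 to 5.36 RPKM) and Socs1 (0.989 to 1.51 RPKM) were lowest, and their ranges were separate from those of their neighbours.

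**Figure D1:**
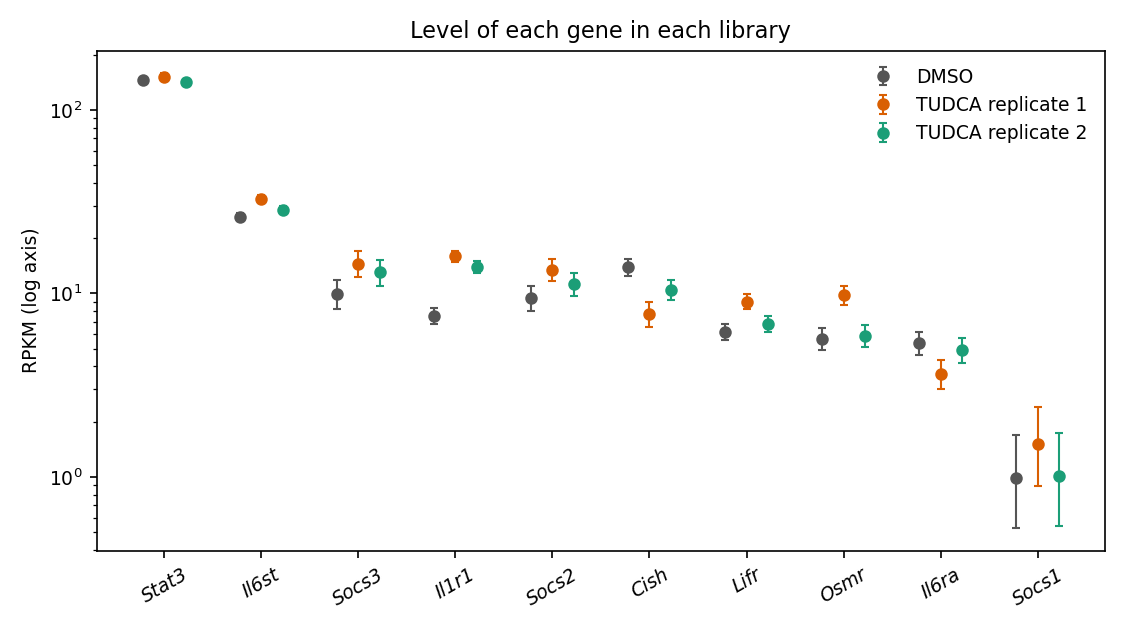
RPKM of each of the 10 genes on a log axis, in order of mean level, for the DMSO library (grey), TUDCA replicate 1 (orange) and TUDCA replicate 2 (green). Bars are exact 95% Poisson intervals for counting error only. Il1r1 has 7.53 RPKM in DMSO, against 15.9 and 13.9 with TUDCA, and its DMSO interval meets neither TUDCA interval. The Stat3 points lie between 141.4 and 151.8.

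None of the 4 receptor chains of the IL-6 family passed the test. Il6ra (ENSMUSG00000027947) had 5.36 RPKM in DMSO, 3.62 in TUDCA replicate 1 and 4.89 in TUDCA replicate 2. DMSO was the highest library, but TUDCA replicate 2 lay much closer to it than to TUDCA replicate 1, and the difference did not pass the test (-0.29 ± 0.30, SE, limma adjusted p = 0.860). Il6st (ENSMUSG00000021756), the shared chain, had 26.0 RPKM in DMSO, against 32.6 and 28.4 RPKM in the TUDCA libraries. DMSO was the lowest library here, and the difference of 0.22 ± 0.24 did not pass the test (limma adjusted p = 0.874). The gp130 transcript thus exceeded the Il6ra transcript 4.86 times in DMSO, 9.02 times in TUDCA replicate 1 and 5.81 times in TUDCA replicate 2, per length. The spread between the TUDCA libraries was larger than the gap between TUDCA replicate 2 and DMSO.

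Osmr (ENSMUSG00000022146), the oncostatin M chain, was high in a single library. It had 5.65 RPKM in DMSO, 9.73 in TUDCA replicate 1 and 5.88 in TUDCA replicate 2. Exact 95% Poisson intervals, which cover counting error only, ran from 4.88 to 6.51 RPKM in DMSO, from 8.67 to 10.9 in TUDCA replicate 1 and from 5.09 to 6.76 in TUDCA replicate 2. TUDCA replicate 1 thus lay above the other two beyond counting error, and the mean difference did not pass the test (0.37 ± 0.29, limma adjusted p = 0.762). Lifr (ENSMUSG00000054263), the chain for leukaemia inhibitory factor, had the same order with 6.16 RPKM in DMSO, against 9.02 and 6.79 RPKM with TUDCA (0.30 ± 0.29, limma adjusted p = 0.830). The ratio of Lifr to Osmr stayed near 1, at 1.09 in DMSO and 0.927 and 1.15 in the TUDCA libraries.

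Stat3 (ENSMUSG00000004040) was level across the libraries, with 145.6 RPKM in DMSO, 151.8 in TUDCA replicate 1 and 141.4 in TUDCA replicate 2. DMSO lay between the TUDCA libraries, and the difference was 0.01 ± 0.21 (limma adjusted p = 0.996). Its 95% interval ran from -0.40 to 0.41 on the log2 scale, which bounds the change without showing that there was none. Median centring turned the sign of this difference, to -0.03. Stat3 had 6.48 times the level of Stat5b, the main STAT of growth hormone signalling, in DMSO and 6.23 and 6.11 times with TUDCA. In GENCODE M21 Stat3 overlaps Stat5a on the opposite strand, as Il6ra does Gm42809 and Cish does Gm17040 and Gm17041, and without a stated strand setting their shared reads cannot be told apart. Il1r1 overlaps Gm38070 on the same strand, so its reads may be shared as well.

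The SOCS genes lay on both sides of DMSO. Socs3 (ENSMUSG00000053113), the inhibitor of gp130 signalling, had 9.91 RPKM in DMSO, against 14.5 and 13.0 RPKM with TUDCA. Both TUDCA libraries lay above DMSO, at 1.46 and 1.31 times its level, but the difference of 0.43 ± 0.27 did not pass the test (limma adjusted p = 0.631, 95% interval -0.09 to 0.96). Socs2 (ENSMUSG00000020027), which restrains growth hormone signalling, had 9.41 RPKM in DMSO, against 13.4 and 11.2 RPKM with TUDCA (0.35 ± 0.27, limma adjusted p = 0.761). Socs1 (ENSMUSG00000038037), an inhibitor of interferon signalling, had 0.989 RPKM in DMSO, against 1.51 and 1.01 with TUDCA. These rest on 13, 18 and 13 reads, as the smallest whole numbers behind the values, and the 95% interval of the difference ran from -0.45 to 0.80 on the log2 scale, so smaller changes of Socs1 were not detectable.

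Cish (ENSMUSG00000032578), whose product CIS competes with STAT5 for activated receptors, was the SOCS gene among the members with lower levels under TUDCA. It had 13.8 RPKM in DMSO, 7.71 in TUDCA replicate 1 and 10.4 in TUDCA replicate 2. Both TUDCA libraries lay below DMSO, and their Poisson intervals (6.59 to 8.95 and 9.15 to 11.8 RPKM) did not meet that of DMSO (12.4 to 15.4 RPKM). The difference of -0.57 ± 0.27 had an unadjusted limma p of 0.0364 and did not pass after adjustment (limma adjusted p = 0.399). Socs3 had 0.716 times the level of Cish in DMSO and 1.88 and 1.25 times in the TUDCA libraries. For Socs2 the same ratio to Cish was 0.680 in DMSO and 1.74 and 1.08 with TUDCA. Cish was thus the higher gene of each pair, per length, in DMSO alone. Of the other SOCS genes, chosen for their family after their values were seen, Socs4, Socs5, Socs6 and Socs7 were not called. Socs7 had 12.6 RPKM in DMSO, then 8.83 and 8.52 with TUDCA (-0.49, limma adjusted p = 0.572).

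Sequence of the promoters was searched for the general STAT recognition letters TTCNNNGAA, which read the same on both strands. RefSeq windows of the build GRCm38.p6, from 250 bases before to 50 bases after a gene's start, were at hand for 9 of the 10 members (not Socs2). Matches were found for 2 of these 9 genes, Socs3 and Cish, while 9.55% of all 27025 genes with windows held one. Their stretches are shown because they are the members with a match, and capitals mark the matches.
Socs3, chr11:117969502-117969530, minus strand: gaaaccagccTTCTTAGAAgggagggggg
Cish, chr9:107296659-107296678, plus strand: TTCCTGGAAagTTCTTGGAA
The Socs3 match begins 154 bases before the start used here. The stretch around it overlaps the annotated span of a gene, and which gene that is was not examined. Cish holds a pair of matches at bases 1 and 12 from its start, and the first also fits the stricter letters TTCCNGGAA, found in 1.35% of all genes with windows. A match is a description of the letters and not evidence of a bound site.

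Il1r1 had the largest difference of the members in size. Its level was 7.53 RPKM in DMSO, 15.9 in TUDCA replicate 1 and 13.9 in TUDCA replicate 2, or 14.9 ± 1.4 with TUDCA (SD, n = 2). Both TUDCA libraries lay well above DMSO, at 2.11 and 1.85 times its level, and close to each other. The difference was 0.90 ± 0.27 (SE, limma adjusted p = 0.0384, 95% interval 0.37 to 1.42). The call is near the threshold and ended under quantile normalization, without the variance trend, under median centring and without the filter (adjusted p = 0.125, 0.0503, 0.0524 and 0.550), while voom on the smallest whole reads gave 0.0106. On simulated reads more of the calls were of unchanged genes than the threshold allows, which bears on calls as near to it as this one. Reads behind the values were 388 in DMSO and 742 and 703 with TUDCA.

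Endothelial cells and fibroblasts also express Il1r1, and their markers were low. The 6 sinusoidal endothelial markers summed to 2.65 RPKM in DMSO, against 4.33 and 3.72 RPKM with TUDCA, with 6 of 6 above 0 in some library. Of these, Lyve1 and Clec4g had no read in DMSO. The 7 stellate cell and fibroblast markers summed to 11.4 RPKM in DMSO, against 10.6 and 9.06 with TUDCA, with 7 of 7 above 0 in some library. The endothelial sum was thus higher and the fibroblast sum lower in both TUDCA libraries, and the part of these cells in the Il1r1 difference was not tested. The 6 cholangiocyte markers, of which 5 were above 0 in some library and Cftr had no read, summed to 419.2 RPKM in DMSO, against 803.8 and 627.4 with TUDCA. Most of this was Spp1, encoding osteopontin, which rose from 387.5 RPKM to 767.5 and 578.2 RPKM and was the marker of this list called higher by limma. The part of cholangiocytes in the rises of Il1r1 and of the STAT3 targets described further on was not tested. In bulk RNA, fewer cells of a type and less RNA per cell cannot be told apart.

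**Figure D2:**
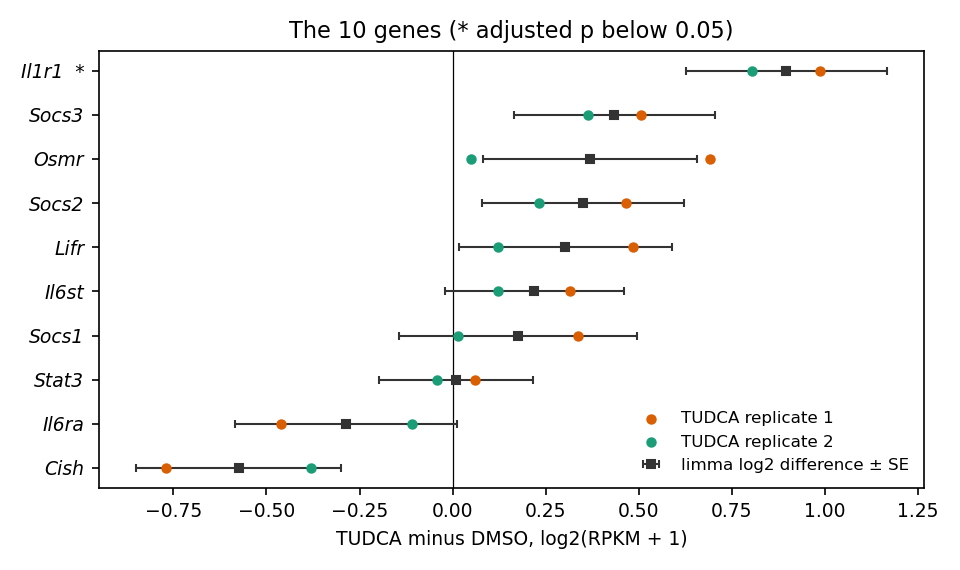
Difference from DMSO on the log2(RPKM + 1) scale for the 10 genes, as the limma estimate with its SE (black squares) and for each TUDCA library (orange, replicate 1; green, replicate 2). Il1r1 at 0.90 is marked with an asterisk for an adjusted p below 0.05, and Cish at -0.57 is lowest.

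DMSO was the lowest of the 3 libraries for 7 members, the highest for 2 (Il6ra and Cish) and the middle for Stat3. Over all 11300 genes DMSO was lowest for 40.5% and highest for 30.4%. TUDCA replicate 1 lay farther from DMSO than TUDCA replicate 2 did for 10 of 10 members, beside 60.1% of all genes. In TUDCA replicate 1 the median difference of the members was 0.40 (0.06 over all genes), and in TUDCA replicate 2 it was 0.08 (0.02 over all genes). Both comparisons use the same DMSO library, so the differences of the TUDCA libraries are not independent of each other.

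**Figure D3:**
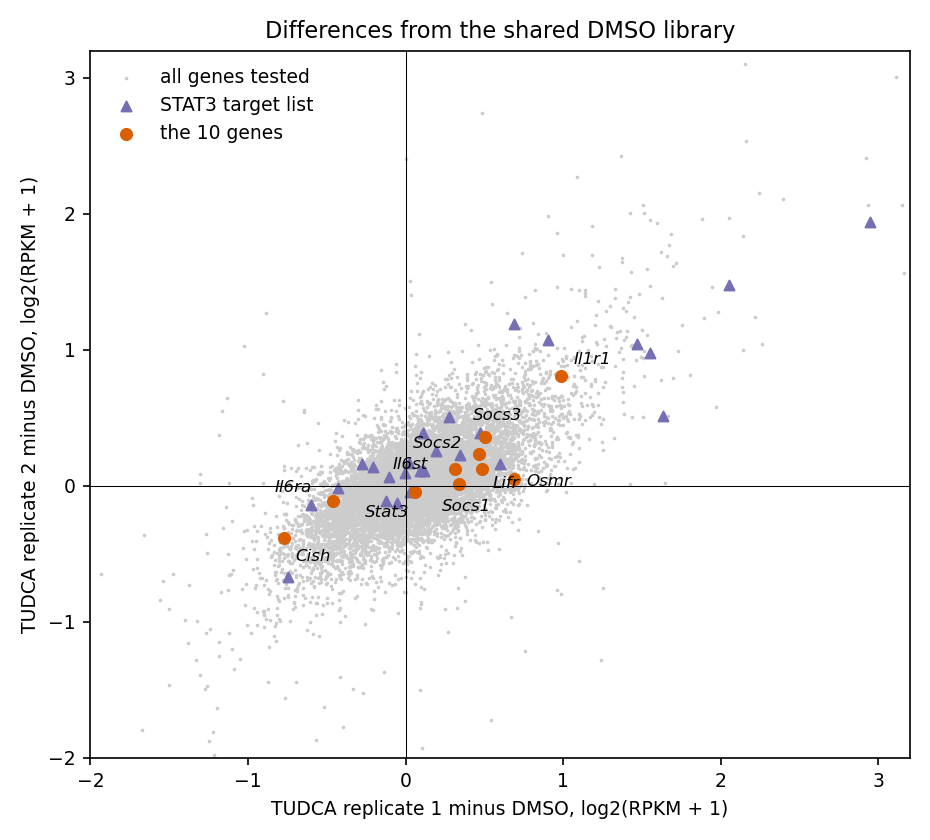
Difference of TUDCA replicate 1 (horizontal) and TUDCA replicate 2 (vertical) from the shared DMSO library on the log2(RPKM + 1) scale, for all genes tested (grey; 22 lie outside the axes), the STAT3 target list (triangles) and the 10 genes (orange, named). Il1r1 lies at 0.99 and 0.80 and Cish at -0.77 and -0.38, while Osmr lies at 0.69 and 0.05.

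Genes whose pair of differences lay nearest to that of Il1r1 were Nfkbiz, Racgap1 and Ablim1. The measure was the Euclidean distance of both log2 differences from DMSO, over 3 libraries, among 6715 genes with a symbol and a mean of at least 10 RPKM. Nfkbiz, at a distance of 0.045, had 8.41 RPKM in DMSO, against 17.1 and 15.7 with TUDCA. Distances were 0.072 for Racgap1 and 0.077 for Ablim1. With so few libraries many genes share such a pattern.

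Of the other components upstream of STAT3, none was called. The list of IL-6 family ligands and other receptors held 15 genes, of which 4 passed the filter, and limma and voom called none of them (1 with an unadjusted limma p below 0.05). Clcf1, a ligand of the ciliary neurotrophic factor receptor, had 8.14 RPKM in DMSO, against 14.0 and 12.4 with TUDCA (0.64, limma adjusted p = 0.283). Lif, encoding leukaemia inhibitory factor, had 8.00 RPKM in DMSO, against 5.76 and 6.01 with TUDCA (-0.39, limma adjusted p = 0.743). Il11ra1, the IL-11 receptor chain, had 11.7 RPKM in DMSO, against 10.7 and 14.3 with TUDCA, and Ctf1, encoding cardiotrophin, had 0.897 and 1.14 and 1.55. Il6 itself had 3, 1 and 3 reads as the smallest whole numbers, and Osm had no read in any library. Read numbers this small leave changes of Il6 and Osm out of reach.

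Of the 9 JAK and STAT genes that passed the filter out of 10, limma and voom called none (1 at an unadjusted limma p below 0.05), with a median difference of 0.17. Jak1, the kinase most tied to gp130, had 166.6 RPKM in DMSO, against 184.2 and 144.3 with TUDCA. Stat6, the IL-4 responsive STAT, had 179.6 RPKM in DMSO, against 161.0 and 183.7 with TUDCA. Stat2, which acts in interferon signalling, had 21.6 RPKM in DMSO, against 22.5 and 23.3 with TUDCA, and Stat5b had 22.5 and then 24.4 and 23.1 RPKM. For each of these 4 genes the limma adjusted p was at least 0.977. Jak1 and Stat6 reversed sign with quantile normalization (0.07 and 0.0035), so no direction is given for them.

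Other JAK-STAT regulators, a list of phosphatases, PIAS proteins, SOCS box partners and shedding proteases, were called by neither limma nor voom in 20 of 20 cases (1 at an unadjusted limma p below 0.05), with a median of 0.05. Elob, a subunit of the SOCS box ubiquitin ligase, had 359.2 RPKM in DMSO, against 306.6 and 374.2 with TUDCA. Rnf7, its RING protein, had 75.0 RPKM in DMSO, against 73.0 and 84.8 with TUDCA. Ptpn11, the phosphatase SHP2 that SOCS3 competes with for gp130, had 63.8 RPKM in DMSO, against 68.6 and 59.9 with TUDCA, and the adaptor Grb2 had 63.3 and then 52.5 and 51.8.

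Known STAT3 target genes included genes called higher. Of 26 genes in the list, all of which passed the filter, limma called 7 higher, none lower and 19 not. Voom also called 7 higher and none lower. At an unadjusted limma p below 0.05 there were 9 genes of the list, beside 10.8% of all genes. Differences were positive for 17 of the 26 genes and negative for 9. Over all genes 1.77% were called higher. The median difference of the list was 0.17, so the rises were those of a subset. The list was chosen with earlier results of these data known and is not independent evidence of its direction. Of the 8 hepatocyte markers, limma called 1 higher, the liver transcription factor Hnf4a (115.0 RPKM in DMSO, then 198.6 and 191.2), and none lower, with a median of 0.14, and voom called 2 higher. The part of hepatocyte identity in the STAT3 target differences was not tested.

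Hamp (ENSMUSG00000050440), the iron hormone hepcidin, had 486.1 RPKM in DMSO, against 3752 and 1866 RPKM with TUDCA (2.44 ± 0.20, limma adjusted p = 7.7e-32). Steap4 (ENSMUSG00000012428), a metalloreductase, rose from 48.9 RPKM to 206.3 and 138.3 RPKM (1.77 ± 0.21, limma adjusted p = 2.9e-14). Cebpd (ENSMUSG00000071637), a transcription factor of the acute phase, rose from 45.1 RPKM to 73.2 and 104.1 RPKM (0.94 ± 0.22, limma adjusted p = 0.00129). For Hamp and Steap4 TUDCA replicate 1 was the higher library, and for Cebpd TUDCA replicate 2 was. These SE come from the common spread of genes at each level, whereas TUDCA replicates 1 and 2 gave 2.95 and 1.94 for Hamp. Without the filter the SE was 0.61 for Hamp, 0.35 for Steap4 and 0.31 for Cebpd. None of them was called in that setting (limma adjusted p = 0.569, 0.560 and 0.594). Calls were lost there for genes with a smaller SE too, such as Il1r1 (0.16, beside 0.27 with the filter). The small p-values above rest on the common spread and overstate the certainty.

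Haptoglobin (Hp), which binds free haemoglobin, and the 3 fibrinogen chains were the other genes called. Hp rose from 2190 RPKM to 4102 and 4608 RPKM. Fga rose from 540.6 to 1588 and 1065 RPKM and Fgb from 914.3 to 2530 and 1885 RPKM. Fgg had 264.9 RPKM in DMSO, against 824.9 and 378.7 RPKM with TUDCA, a difference of 1.07. It was 1.64 when TUDCA replicate 2 was left out and 0.51 when TUDCA replicate 1 was. Robust estimation did not call Fgg (adjusted p = 0.164). The fibrinogen chains are subunits of a single protein, and in all 3 TUDCA replicate 1 was the higher library.

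Several other STAT3 targets did not pass the test. Pim1, a survival kinase, had 28.5 RPKM in DMSO, against 16.6 and 17.5 with TUDCA (-0.71, limma adjusted p = 0.123). Junb, an AP-1 subunit, had 151.1 RPKM in DMSO, against 138.4 and 140.1 with TUDCA, and Bcl3, an NF-kB cofactor, had 117.8 and then 150.2 and 138.2. Saa1, a serum amyloid with close paralogs, had 7867 RPKM in DMSO, against 7981 and 8843 with TUDCA, likewise without a call. These 4 were chosen after their values were seen.

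**Figure D4:**
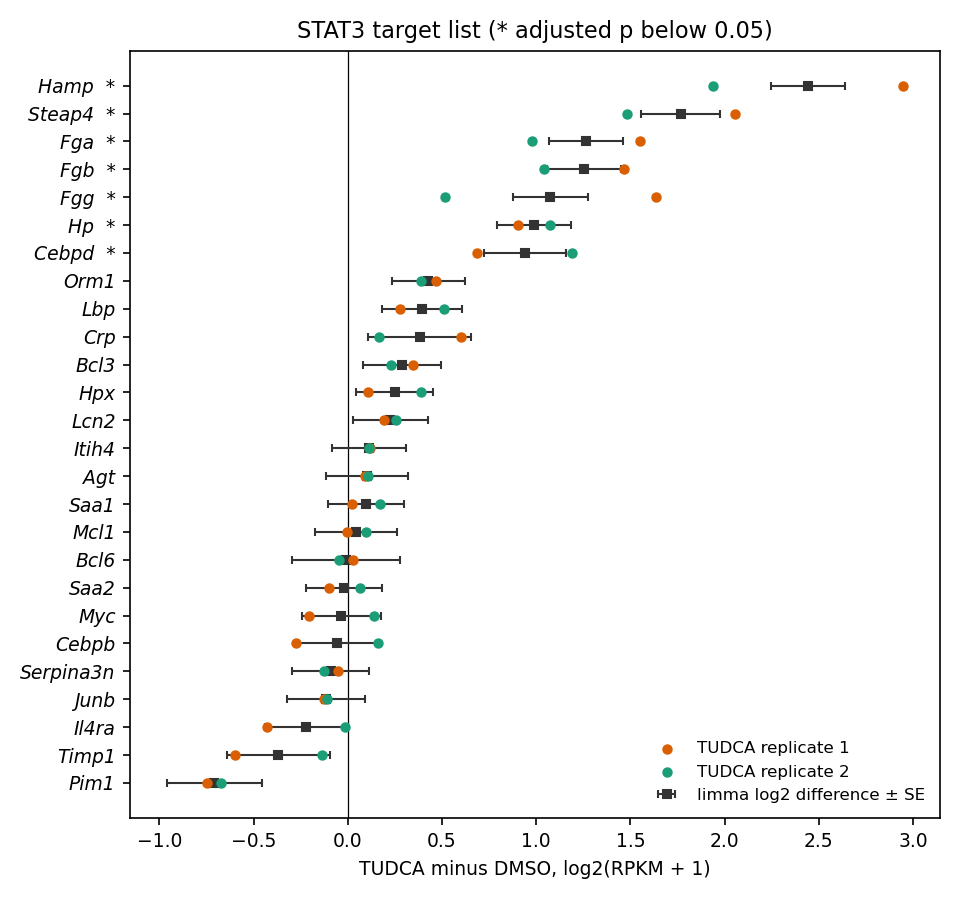
Difference from DMSO on the log2(RPKM + 1) scale for the 26 genes of the STAT3 target list, as the limma estimate with its SE (black squares) and for each TUDCA library (orange, replicate 1; green, replicate 2). The 7 genes with an asterisk (adjusted p below 0.05) range from 0.94 for Cebpd to 2.44 for Hamp, and Pim1 is lowest at -0.71.

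Promoter windows were at hand for 21 of these 26 genes, and 7 of the 21 held TTCNNNGAA, beside 9.55% of all genes with windows. The list is of known STAT3 targets, chosen with earlier results known, so this share is no test of an effect of TUDCA. Among the 7 genes called higher, Cebpd and Hp had no window, Fgg had no match, and the other 4 each held a match. Their stretches are printed because these are the target genes that rose, with the matches in capitals.
Hamp, chr7:30944088-30944156, minus strand: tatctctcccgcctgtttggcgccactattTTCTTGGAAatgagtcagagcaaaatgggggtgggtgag
Steap4, chr5:7960346-7960374, plus strand: ggttgaactcTTCCCGGAAactttgcttc
Fga, chr3:83025903-83025957, plus strand: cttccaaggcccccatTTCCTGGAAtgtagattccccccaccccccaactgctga
Fgb, chr3:83049987-83050055, minus strand: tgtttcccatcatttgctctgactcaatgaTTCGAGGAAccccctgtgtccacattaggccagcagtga
The matches begin 97, 116, 234 and 162 bases before the start, in that order. The Steap4 stretch, like that of Socs3, overlaps the annotated span of a gene, and which gene that is was not examined. Matches were present too in Bcl6, Itih4 and Agt, which were not called. The stricter letters TTCCNGGAA fitted Steap4 and Fga among the genes called and Agt and Bcl6 among those not called.

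The growth hormone axis, in which Socs2 and Cish are known STAT5 targets, gave no call by limma or voom among the 9 of 11 genes that passed the filter (2 at an unadjusted limma p below 0.05, median 0.23). Igf1, the growth hormone-driven growth factor, had 70.5 RPKM in DMSO, against 76.7 and 81.7 with TUDCA. The major urinary protein genes Mup3 (797.4, 1243 and 906.7 RPKM in DMSO and TUDCA replicates 1 and 2) and Mup20 (141.2, 233.6 and 169.8 RPKM) belong to a family of near-identical genes, so their reads are uncertain. Egfr, the epidermal growth factor receptor, had 102.7 RPKM in DMSO, against 120.2 and 103.6 with TUDCA.

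Around Il1r1, the list of IL-1 and toll signalling had 16 of 21 genes past the filter, of which limma called 1 higher and none lower (2 at an unadjusted limma p below 0.05), with a median of 0.07. The called gene was Irak3, an inhibitory kinase of the pathway, which rose from 16.9 RPKM to 28.8 and 31.8 RPKM (0.81 ± 0.24, limma adjusted p = 0.0397), a call as near to the threshold as that of Il1r1. It ended under quantile normalization, without the variance trend, under median centring, with voom and without the filter (adjusted p = 0.120, 0.110, 0.0798, 0.0522 and 0.530). Irak1, the kinase that relays the signal, had 108.8 RPKM in DMSO, against 110.4 and 115.6 with TUDCA. Tollip, an adaptor that restrains the receptor, had 97.2 RPKM in DMSO, against 72.7 and 61.1 with TUDCA (-0.54, limma adjusted p = 0.226), and Tab2, an adaptor of the kinase TAK1, had 43.5 and then 52.9 and 40.8.

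Il1rap, the co-receptor that Il1r1 needs, was chosen for its role after its values were seen and had 3.94 RPKM in DMSO, against 5.22 and 3.74 with TUDCA. Il1r1 thus had 1.91 times the level of Il1rap in DMSO and 3.05 and 3.71 times with TUDCA. Il1rn, the secreted antagonist, had 3.37 times the level of Il1r1 in DMSO and 1.90 and 2.55 times with TUDCA. The other cytokine receptors, 13 of 15 past the filter, gave no call by limma or voom (1 at an unadjusted limma p below 0.05, median 0.12). Among them Tnfrsf1a, the main receptor for tumour necrosis factor, had 263.0 RPKM in DMSO, against 258.4 and 272.1 with TUDCA, and Ifngr1, of the interferon-gamma receptor, had 67.2 and then 121.4 and 83.9 (0.58, limma adjusted p = 0.150). Ifnar2 had 37.9 and then 49.1 and 53.6 RPKM, and Ifngr2 had 44.1 and then 48.1 and 47.5.

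**Figure D5:**
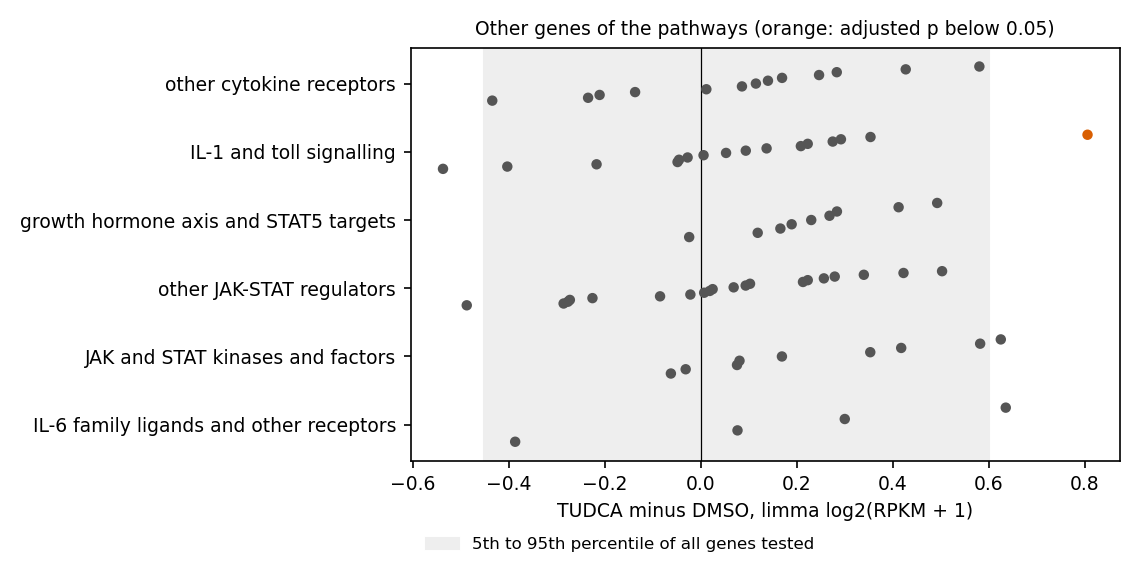
Limma difference from DMSO on the log2(RPKM + 1) scale for each tested gene of 6 further lists, one row per list; the grey band spans -0.45 to 0.60, the 5th to 95th percentile of all genes tested. Irak3 at 0.81 (orange) is the point past the adjusted threshold, and most others lie inside the band.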

How the data were processed

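Polyadenylated RNA was sequenced from 3 hepatocyte libraries, per the labels' protocols. The authors deposited RPKM values, 1 table per library. Tools in the submitters' processing notes are TopHat2 2.0.7, Bowtie2, HTSeq and CASAVA; genome build, annotation and strand setting: not given in the sources used here. Symbols were matched by identifier to GENCODE M21 (32897 of 37620). Library totals and the smallest whole reads were recovered from the RPKM values for 19146 of 19146 genes above 0, within 1e-06 reads; a gene may hold a multiple of these reads. Exact 95% Poisson intervals use them and cover counting error only. Values were tested as log2(RPKM + 1), keeping means of at least 1 RPKM, with limma 3.58.1 in R 4.3.3 (variance trend, Benjamini-Hochberg over 11300 genes, threshold 0.05). The prior degrees of freedom were infinite, so each gene took the common spread at its level (SD 0.159 to 0.265). On simulated reads the fit recovered most changed genes in the right direction, but unchanged genes made up more of its calls than the threshold allows. The members and lists were chosen with earlier results of these data known. Named genes are the members, the called genes of each list and, below 4, those of highest RPKM. Alternatives were another pseudocount, filter, scaling or variance model, voom on the smallest whole reads, leaving out a TUDCA library and, chosen after seeing the data, a filter at 300 nt and 20 reads.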

Additional observations from a re-analysis of the deposited data

How the results depend on the processing

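Without the filter limma called 0 of 19146 genes and 0 of the 10 members (1696 genes and 1 member at an unadjusted p below 0.05), so every limma call printed here was lost in that setting. This held for genes whose SE fell as well as for those whose SE grew. Voom was run with the filter only and called 268 of 11300 genes and 1 member. Over the other alternatives the count of genes called ranged from 232 to 327, beside 299. The count of members called was also 0 with quantile normalization, median centring and limma without the trend, with 2 members at an unadjusted p below 0.05 in each. The Il1r1 call held in 6 of 10 tested alternatives, with an adjusted p of 0.0106 to 0.550 and a difference of 0.79 to 0.98. With quantile normalization and with median centring the count of IL-1 and toll genes called higher was 0 in place of 1. Without 1 TUDCA library no residual degree of freedom is left, so these are values without a test: the median difference ranged from 0.14 to 0.27 for JAK and STAT genes (0.27 without TUDCA replicate 1), from -0.029 to 0.089 for other JAK-STAT regulators, from 0.11 to 0.17 for STAT3 targets (0.13 with median centring) from 0.038 to 0.13 for other cytokine receptors, from 0.030 to 0.35 for IL-6 family ligands and other receptors and from 0.034 to 0.096 for IL-1 and toll genes. Quantile normalization lowered the medians of the ligands, JAK and STAT genes, other regulators and IL-1 and toll genes to 0.085, 0.084, 0.0011 and 0.042, and median centring those of other regulators, IL-1 and toll genes and other cytokine receptors to 0.0067, 0.033 and 0.075. Signs turned, with no call on either side, for Stat3, Ptpn11 and Tnfrsf1a with median centring (-0.032, -0.033 and -0.028), for Il11ra1, Stat6, Jak1 and Elob with quantile normalization (-0.010, 0.0035, 0.070 and 0.017) and, without 1 TUDCA library, for Stat3 (-0.042 to 0.060), Il11ra1 (-0.12 to 0.27), Stat6 (-0.16 to 0.033), Jak1 (-0.21 to 0.14), Elob (-0.23 to 0.059), Rnf7 (-0.038 to 0.18), Ptpn11 (-0.088 to 0.10), Tab2 (-0.090 to 0.28) and Tnfrsf1a (-0.025 to 0.049). No paired analysis was possible because there is a single DMSO library. Depth limits Socs1, Il6 and Osm, which rest on few or no reads.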
